A study of Mus musculus with 563 samples.

Results

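Old hematopoietic stem cells (HSCs) of the MID group were set against old HSCs of the LO group, cell by cell and as summed reads. HSCs are the rare bone marrow cells from which all blood lineages arise. The bone marrow donors were Gfp-Lc3 mice, whose reporter fuses green fluorescent protein to LC3, which is attached to the membrane of the forming autophagosome. Cells were sorted singly and sequenced with Smart-seq2, a full-length protocol without molecular identifiers. The study asked which RNA differences go with autophagy activity in old HSCs. Both groups are labelled old, Gfp-Lc3 and isolated at steady state, and they differ in the label MID or LO only. The labels do not say what MID and LO measure, nor the age in months, the sex or the animal of any cell, and they name no promoter for the reporter.

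The members are the cells titled oHSC_MID or oHSC_LO that reached 50000 nuclear gene reads and 1000 genes and whose mitochondrial reads did not exceed 20%. The deposited counts come in 2 tables. The first held 68 such MID and 64 such LO cells and the second 66 MID and 71 LO cells, together 269 cells out of 533 kept and 563 in the series. LO cell 58 in the first table was left out. Of the 32693 G2 and M phase reads of LO cells in that table, it alone held 19864 (60.8%). Old HI cells (68 and 61 by table) and young cells (63 and 71) from the same tables, also Gfp-Lc3, are given where they help to place a value. The median cell had 254723 nuclear gene reads in MID and 257063 in LO, and the sums were 40419277 and 38272590 reads. Within the tables the medians differed in opposite directions, at 237674 in MID and 291830 in LO cells of the first table and at 276061 in MID and 237938 in LO cells of the second. A MID cell had a median of 7934.5 genes and an LO cell 7672. Reads in the 37 mitochondrially encoded genes made up a median of 2.29% in MID and 2.12% in LO cells, and there were 47.2 and 43.8 nuclear reads per spike-in read.

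The labels name no animals. MID and LO therefore stand for 1 sample each, and their difference carries no test. Values are reads per 1000000 nuclear gene reads (CPM) of the summed cells, and differences are log2 of CPM plus 1, MID minus LO, taken within each table and averaged. A bracketed pair gives the first and then the second table. In sums of this kind, fewer cells with a transcript and less of it per cell cannot be told apart, so per-cell values are given where they bear on a result. All intervals are 95% intervals for counting error alone, since reads of 1 molecule are not independent.

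The labelled cell type was set against markers of HSCs and of other blood cells. Of the 7 HSC markers, Procr, Slamf1, Kit, Ly6a, Mecom, Hlf and Fgd5, all were read at 65.3 CPM or more in each sum. Kit, the receptor for stem cell factor, stood at 1649 and 1513 CPM in MID cells and at 1563 and 1516 CPM in LO cells. Procr, the endothelial protein C receptor, stood at 239 and 270 CPM in MID and at 229 and 241 CPM in LO cells. Markers of mature blood cells ranged from near absent to well read. The 10 mast cell and basophil genes summed to 0.566 and 2.01 CPM in MID and 6.37 and 4.20 CPM in LO cells, and the 12 B cell genes to 33.98 and 68.8 CPM in MID and 68.9 and 51.5 CPM in LO cells. The 14 neutrophil genes summed to 506 and 494 CPM in MID and 599.7 and 521 CPM in LO cells, with 3 of them at 0 in MID and 0 in LO. Only 1 of the 14, Prtn3, passed the level filter, and it made up most of the sum, at an average of 491 CPM in MID and 546 CPM in LO. The 14 erythroid genes summed to 1299 and 1699 CPM in MID and 1225 and 1401 CPM in LO cells. The 13 monocyte and macrophage genes summed to 433 and 417 CPM in MID and 359.5 and 374 CPM in LO cells. Reads of Y-linked genes (20 or more) were found in 62 of 68 and 57 of 66 MID cells and in 56 of 64 and 62 of 71 LO cells. In the young group, 57 of 63 cells of the first table and 0 of 71 of the second had them, so the young cells of the tables differ in sex-linked reads.

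Autophagy carries cytoplasm and organelles to the lysosome for breakdown, and the LC3 protein on the autophagosome is consumed along the way, which is why a fluorescent LC3 is used to follow the process. Earlier work in mice links the loss of autophagy in HSCs to more mitochondria and to cell cycle entry, and describes old HSCs as a mix of cells with more and less autophagy. In old HSCs, genes of the platelet lineage and of adhesion are raised. SOCS3, named beside the reporter for this comparison, is an inhibitor that binds cytokine receptors of the interleukin-6 family and restrains JAK kinases, and it is itself switched on by STAT factors.

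MID and LO cells were close to each other in nearly all genes, and the reporter was the clearest difference between them. The eGFP transcript stood at 711 and 1038 CPM in MID cells and at 387 and 408 CPM in LO cells. Both MID sums lay above both LO sums. The log2 difference was 1.11 (0.87 and 1.34), with a counting interval of 1.08 to 1.14, from 35985 reads in MID and 15376 in LO cells. The rat Map1lc3b sequence, the LC3 part of the fusion, was higher along with it, at 661 and 938 CPM in MID and 366 and 368 CPM in LO cells, a difference of 1.10 (0.85 and 1.35). There were 0.914 rat Map1lc3b reads per eGFP read in MID and 0.922 in LO cells. The mouse's own Map1lc3b stood at 290 and 326 CPM in MID and 310 and 326 CPM in LO cells, a difference of -0.05.

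In MID cells of the first table eGFP ran from 0 to 2469 CPM with a median of 524, and in those of the second table from 0 to 2345 CPM with a median of 790. In LO cells it ran from 0 to 1986 CPM with a median of 212 in the first table, and from 0 to 1755 CPM with a median of 336 in the second. The ranges overlapped over most of their length, and 74.8% of LO cells lay below the median MID cell. A smaller share of MID than of LO cells lay under each of 3 limits. Here 5.97% of MID cells (8 cells, exact Clopper-Pearson interval 2.61% to 11.4%) had under 100 CPM, against 26.7% of LO cells (36 cells, 19.4% to 34.96%). No eGFP read at all was found in 3 MID and 10 LO cells, 9 of these LO cells being in the first table. Under 500 CPM lay 41.04% of MID and 65.2% of LO cells, and under 1000 CPM 66.4% of MID and 88.9% of LO cells.

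Among all groups, the LO sums were the low ones. HI cells had 799 and 902 CPM of eGFP and young cells 799 and 1124 CPM. The MID sums, 711 and 1038 CPM, lay below and above the HI sums, so the RNA of the reporter did not order MID and HI cells, while every MID, HI and young sum exceeded both LO sums. In the share of cells under 100 CPM, MID (5.97%) also stood near HI (3.10%) and young cells (3.73%).

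**Figure D1:**
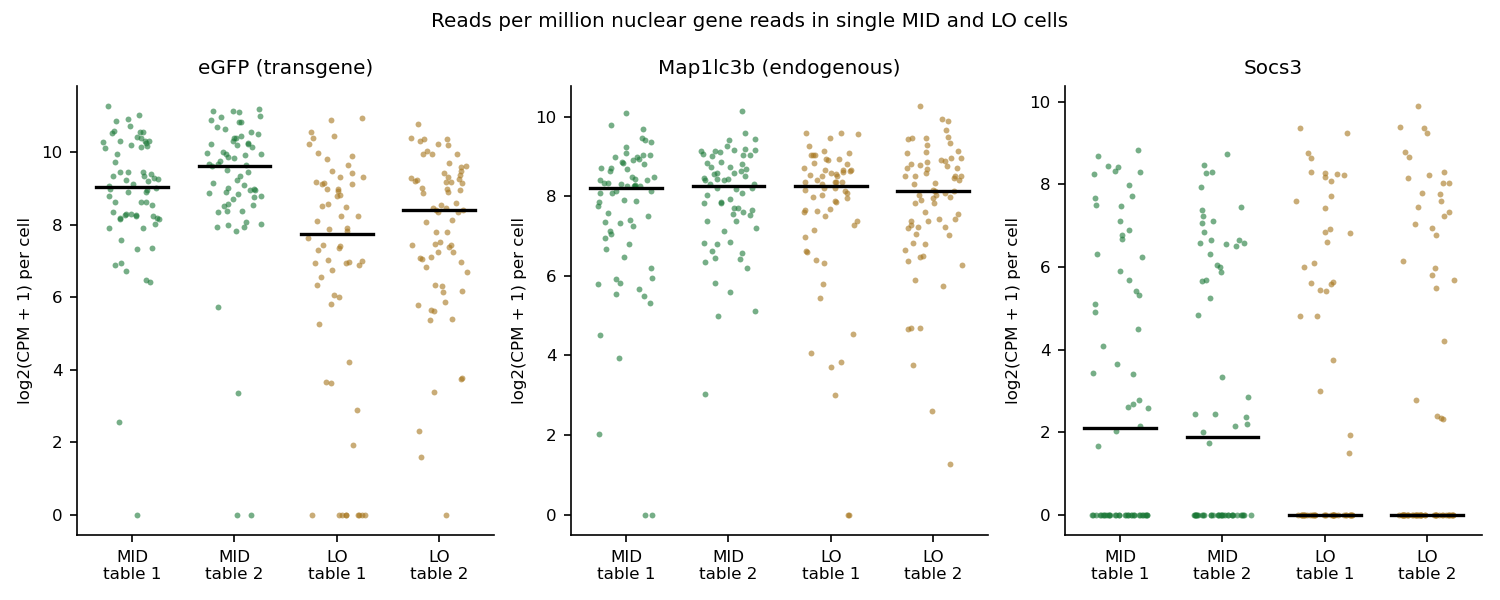
Each point is 1 kept cell, MID left of LO in each panel, with log2 of CPM plus 1 on the vertical axis and a bar at the median. The eGFP medians were 524 and 790 CPM in MID and 212 and 336 CPM in LO cells, Map1lc3b was alike in all 4 sets, and Socs3 was read in part of the cells of each set.

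Socs3 (ENSMUSG00000053113; GRCm38 chromosome 11, 117966079 to 117970047, minus strand) was lower in MID cells. Its sums were 76.98 and 62.9 CPM in MID cells, against 90.7 and 133.7 CPM in LO cells. The MID sums lay below both LO sums. The log2 difference was -0.23 in the first table and -1.08 in the second, so most of the average of -0.65 (counting interval -0.72 to -0.59) came from the second table. HI cells had 58.96 and 47.6 CPM and young cells 9.48 and 23.3 CPM. The order of the levels was therefore LO, MID, HI and young, and no sums of neighbouring groups overlapped.

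The lower sum in MID did not come with a smaller share of cells with a Socs3 read. Cells were thinned to a common depth of 100000 nuclear reads, which 65 and 62 MID and 56 and 66 LO cells reached. A Socs3 read was then found in 48.03% of MID cells (61 cells, 39.1% to 57.1%) and 43.4% of LO cells (53 cells, 34.5% to 52.7%), and before thinning in 52.2% and 44.4%. Among cells with a read, the median was 66.6 and 84.4 CPM in MID and 113.001 and 166 CPM in LO cells. The highest MID cells reached 456 and 424 CPM, and the highest LO cells 662 and 947 CPM. The upper tail was thus shorter in MID cells in each table.

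The promoters of Socs3 and of Cish, another STAT-induced inhibitor of cytokine signals, are shown. Of 6 STAT-regulated genes with a promoter sequence, only these 2 held a match to the STAT motif. Both genes were lower in MID cells, but so were genes without a match, as given below. Capitals mark matches to the STAT motif TTCNNNGAA, which reads the same on both strands. The sequences are from RefSeq (GRCm38.p6), read 5′ to 3′ on the gene's strand. Socs3 is given as the 250 bases before its start, chr11:117969367-117969616 on the minus strand, and Cish as the 250 bases before and the first 20 bases after its start, chr9:107296409-107296678 on the plus strand.
Socs3: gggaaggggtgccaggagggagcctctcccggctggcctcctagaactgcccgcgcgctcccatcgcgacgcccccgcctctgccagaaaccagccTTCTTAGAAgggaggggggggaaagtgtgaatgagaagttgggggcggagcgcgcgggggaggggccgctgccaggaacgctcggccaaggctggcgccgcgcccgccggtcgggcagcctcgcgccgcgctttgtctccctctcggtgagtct
Cish: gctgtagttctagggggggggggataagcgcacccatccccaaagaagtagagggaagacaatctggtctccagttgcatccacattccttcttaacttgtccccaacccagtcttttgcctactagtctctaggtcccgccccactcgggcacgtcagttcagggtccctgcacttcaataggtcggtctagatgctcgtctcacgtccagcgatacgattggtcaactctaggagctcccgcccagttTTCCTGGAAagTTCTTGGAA
The starts are those of RefSeq, and both lie inside the gene bounds of GENCODE, which begin further upstream, so both windows fall within the GENCODE gene bounds. The match in Socs3 begins 154 bases before the RefSeq start, and those in Cish begin at bases 1 and 12 of the RefSeq transcript. The motif was found in 8.30% of the 32851 promoter windows of 300 bases in the table, and 2 or more matches in 0.457% of them. Of 7 STAT-regulated genes looked up, 6 had a window (Socs2 had none), and only Socs3 and Cish among them held a match. Socs1 and Pim1, whose windows held no match, were also lower in MID in both tables. A match is a run of letters, and binding was not measured here.

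The listed genes of the JAK-STAT chain, Socs3 among them, differed little as a set. Of 29 members past the level filter (10 CPM or more on average over the 4 MID and LO sums, and a read in 10% of their cells or more), 4 were higher in MID in both tables and 10 lower, and their median was -0.18 (-0.18 and 0.00). Over all 10649 genes past the filter 26.7% were higher in both tables and 25.6% lower, and the median was 0.00. None of the 29 reached 0.58 in each table, where 1.52% of all genes did so as higher and 1.78% as lower. Among the inhibitors, Cish had 114.98 and 85.9 CPM in MID and 170 and 118.1 CPM in LO cells, a difference of -0.51 (-0.56 and -0.46) with no overlap. Socs1 differed by -0.25 (-0.18 and -0.32), while Socs2 went opposite ways, -1.36 and 0.31. Of the STAT-induced survival kinases, Pim1 differed by -0.25 (-0.34 and -0.15) and Pim2 by -0.34 and 0.59.

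Receptors and signal carriers of the same chain kept near their LO levels. Il6st, the shared receptor of the interleukin-6 family, stood at 62.1 and 68.2 CPM in MID and at 64.04 and 63.8 CPM in LO cells. Osmr, the receptor subunit for oncostatin M, had 28.01 and 24.1 CPM in MID and 32.7 and 32.5 CPM in LO cells, a difference of -0.32. Stat3 differed by -0.28 (-0.38 and -0.18), Stat5a by 0.30 (0.25 and 0.36) and Jak2 by 0.29 (0.08 and 0.50). These differences are small next to the 5% of genes on either side that differed by over 0.58 or under -0.60.

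Across the whole RNA profile, a size rule asked for an averaged log2 difference of at least 1, at least 0.58 with the same sign in each table, at least 20 CPM and a read in at least 20% of cells in the higher group, and no cell with over 20% of its reads. Of 10649 genes, 27 met it as higher in MID (0.254%) and 26 as lower (0.244%). All were genes of low level, the highest at 85.3 CPM among the higher and 78.9 CPM among the lower genes, although 2494 tested genes reached 100 CPM in MID or LO. With the level filter raised to 50 CPM and 25% of cells, the rule was met by Sugp1, a splicing protein, as the single higher gene and by Ddx51 as the single lower gene.

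The tables agreed little on which genes differed. Over the 10649 genes, which are no replicates and share their libraries, Pearson's r between the differences of the first and the second table was 0.027, and over the 2263 genes with a mean of at least 100 CPM it was 0.090. Of 643 genes with a difference of 1 or more in size in the first table, 330 kept their sign in the second (51.3%). A difference of 1 or more in both tables was found for 47 genes in the same direction and for 54 in opposite directions. In the same tables, the HI minus LO differences had an r of 0.392 and 75.8% of the same sign, and the MID minus young differences an r of 0.353. The first of these shares the LO cells and the second the MID cells with the present comparison. Of the genes with a mean of at least 100 CPM, 5% differed by less than -0.38 and 5% by more than 0.32.

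**Figure D2:**
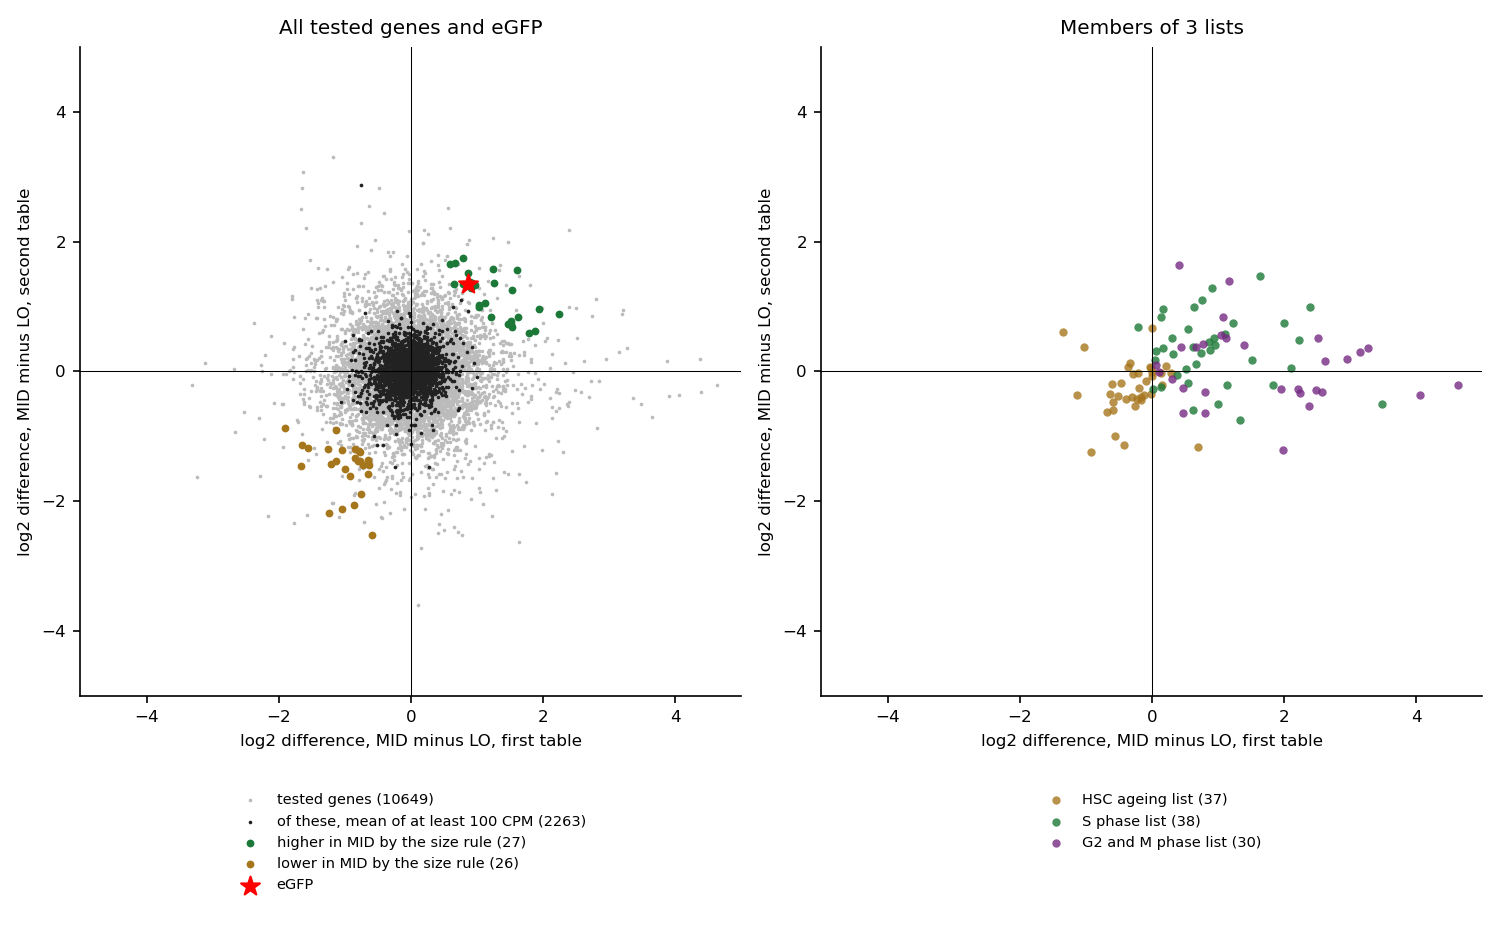
Each point is a gene, with its log2 difference MID minus LO in the first table on the horizontal axis and in the second on the vertical axis. On the left, all tested genes form a round cloud with r of 0.027, and eGFP lies at 0.87 and 1.34. On the right, S phase genes lie mostly in the upper right, G2 and M phase genes spread along the axis of the first table, and genes of the HSC ageing list lie mostly in the lower left.

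The genes highest in MID by the rule had varied roles. Lipt2 (ENSMUSG00000030725; chromosome 7, 100159277 to 100161365, plus strand), which hands octanoyl groups to mitochondrial enzymes, had 31.2 and 27.8 CPM in MID cells and 9.58 and 8.75 CPM in LO cells, a difference of 1.58 (1.61 and 1.56). Its read was found in 27.6% of thinned MID cells and 18.9% of thinned LO cells, intervals that overlap. Neu3, a sialidase of the plasma membrane, had 20.8 and 36.1 CPM in MID and 8.22 and 11.5 CPM in LO cells, a difference of 1.41. Smurf1, a ubiquitin ligase for SMAD proteins, had 23.5 and 26.4 CPM in MID and 13.1 and 7.17 CPM in LO cells, a difference of 1.27. The sums of these 3 genes did not overlap between the groups, which the rule makes likely.

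Immune and mitochondrial genes were also among the 12 highest. Il18, a cytokine of the interleukin-1 family, had 19.4 and 29.2 CPM in MID and 10.2 and 9.59 CPM in LO cells, a difference of 1.19, and its gene overlaps Bco2 and Tex12 on the other strand. Ripk2, a kinase that acts after the NOD receptors, had 35.1 and 32.9 CPM in MID and 9.47 and 21.5 CPM in LO cells, a difference of 1.19. Sfxn2, a carrier of the inner mitochondrial membrane, had 24.2 and 26.7 CPM in MID and 7.18 and 14.4 CPM in LO cells, a difference of 1.23. The zinc finger genes Zfp420 at 1.56, Zfp873 at 1.45 and Zfp954 at 1.40 belonged to the same 12, with Vsig10l at 1.31, Sgsm2, a regulator of Rab GTPases, at 1.17 and Armc7 at 1.25. Armc7 overlaps Nt5c, and it was the only gene of the 53 whose sums overlapped (30.4 and 52.1 CPM in MID, 7.56 and 33.5 CPM in LO). The rule asks for a large difference in each table, so the lack of overlap in the other genes follows largely from their choice.

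The genes lowest in MID included a transcription factor of the immediate early response. Fosl2 (ENSMUSG00000029135; chromosome 5, 32135801 to 32157842, plus strand), an AP-1 subunit, had 23.9 and 16.9 CPM in MID cells and 56.7 and 47.1 CPM in LO cells, a difference of -1.32 (-1.21 and -1.42). Slc22a18, an organic cation transporter, had 8.03 and 4.40 CPM in MID and 20.3 and 23.6 CPM in LO cells, the largest difference by the rule at -1.71. Nrde2, a nuclear RNA surveillance factor, had 11.1 and 7.58 CPM in MID and 23.996 and 36.2 CPM in LO cells, a difference of -1.58. Ddx51, a helicase of ribosome assembly, had 37.1 and 28.4 CPM in MID and 75.1 and 82.7 CPM in LO cells, a difference of -1.25. None of these sums overlapped between the groups, which the rule makes likely.

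Surface and secretory genes made up several of the others. Zg16, a lectin of secretory granules, had 35.1 and 12.8 CPM in MID and 52.997 and 78.1 CPM in LO cells, a difference of -1.55 (-0.58 and -2.52), and it was near absent in young cells at 0.445 CPM. Clec9a, a receptor known from dendritic cells, differed by -1.46, and it overlaps Clec1b, while the 12 dendritic cell markers together summed to 1463 and 1188 CPM in MID and 1167 and 960.1 CPM in LO cells. Cd74, the invariant chain, made up most of that sum, at 982 and 683 CPM in MID and 691 and 601 CPM in LO cells. H2-T3, a non-classical MHC class I gene, had 9.89 and 11.9 CPM in MID and 39.9 and 22.7 CPM in LO cells, a difference of -1.39. The remaining ones were Ube2cbp, a ubiquitin ligase, at -1.56, Rab20, a small GTPase of vesicle traffic, at -1.39, Gmppb, an enzyme of GDP-mannose synthesis, at -1.37, Apol7e at -1.32 and Plxna4os1, antisense to Plxna4, at -1.27. The handling of reads that overlap several genes is not given in the sources used here, so values of Il18, Armc7, Clec9a, Gmppb (which overlaps Rnf123) and Plxna4os1 are uncertain.

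**Figure D3:**
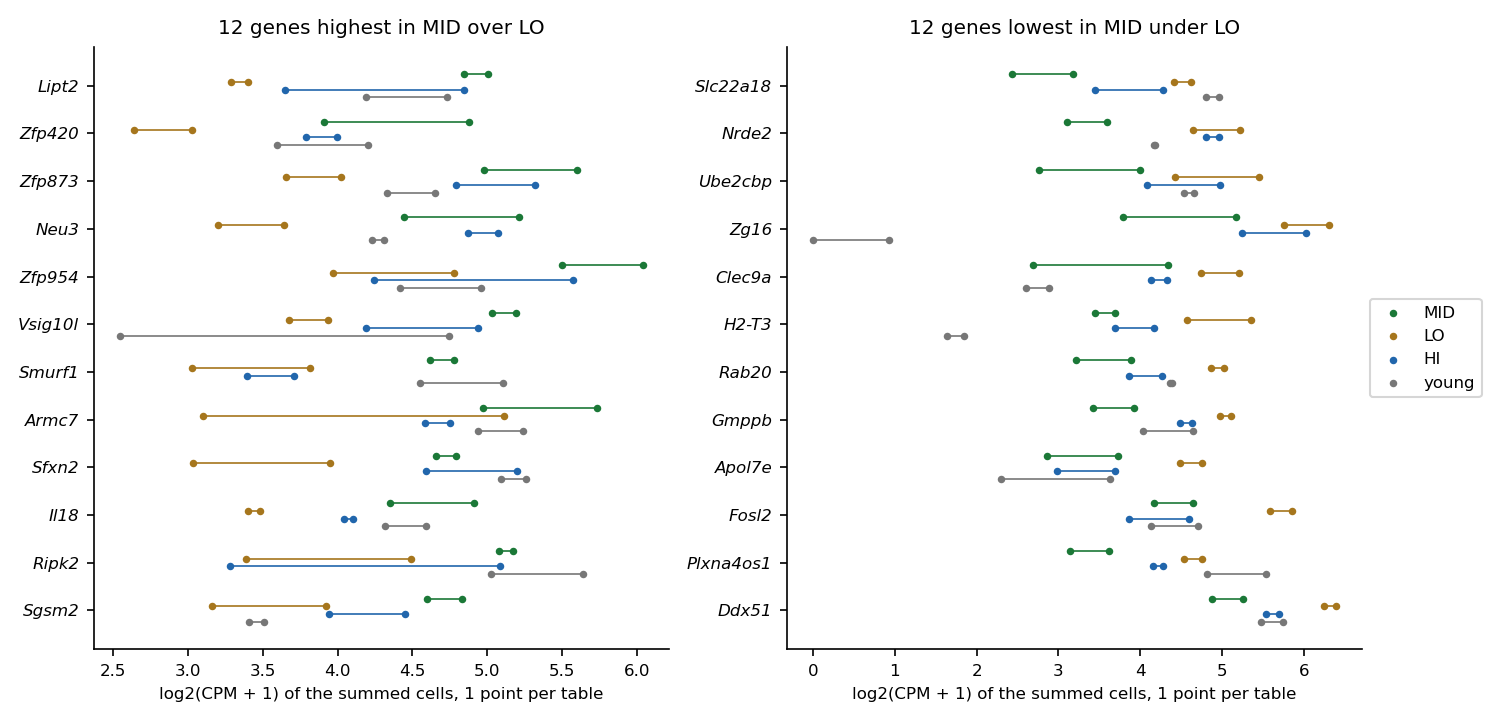
The horizontal axis gives log2 of CPM plus 1 of the summed cells, with 1 point per count table joined by a line, for the 12 genes highest (left) and lowest (right) in MID by the size rule. MID and LO points are apart in each row except Armc7, where an LO sum of 33.5 CPM exceeds a MID sum of 30.4 CPM. The rule makes such a gap likely.

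HI cells, read in the same tables, had a level between MID and LO for 21 of the 27 higher genes and 22 of the 26 lower genes, genes that were chosen for their MID and LO levels. It was above both for 5 higher and 2 lower genes, and below both for 1 higher and 2 lower genes, among them Fosl2 at 18.4 CPM in HI cells. An averaged difference of 1 or more in size was found for 212 genes. Besides the 53, a further 35 higher and 45 lower genes also passed 0.58 in each table but failed the other limits of the rule.

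Among well-read genes, 4 of 2263 with a mean of at least 100 CPM were higher in MID by 0.58 or more in each table (0.177%) and 2 were lower (0.0884%). They were chosen after their values were seen, and 5 of them are described. Myc, the growth and ribosome transcription factor, had 419 and 649 CPM in MID and 229 and 339 CPM in LO cells, a difference of 0.90 (0.87 and 0.94). Mcm5 had 108.8 and 199 CPM in MID and 63.9 and 92.2 CPM in LO cells, and Mcm3, also of the replicative helicase, 181 and 246 CPM in MID and 116.5 and 122.7 CPM in LO cells. On the lower side, Ehd3, an endosome protein of the HSC ageing list, had 74.5 and 95.05 CPM in MID and 119.9 and 146.8 CPM in LO cells, and Slc14a1, a urea transporter, 93.04 and 66.2 CPM in MID and 158 and 101.8 CPM in LO cells. Myc reads were found in 78.7% of thinned MID cells and 78.7% of thinned LO cells, so its share of positive cells was alike.

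Replication genes were higher in MID cells as a group, and several of the differences rested on a few cells. Of the 42 listed S phase genes 38 passed the level filter, 27 of these were higher in both tables and 0 lower (71.1% against 26.7% of all genes), and the median was 0.54 (0.75 and 0.35). Of these, 7 were higher by 0.58 or more in each table, which 1.52% of all genes were: Mcm3, Mcm5, Gins1, Tyms, Uhrf1, Hells and Chaf1a. Hells, a chromatin remodeller, had 41.3 and 41.5 CPM in MID and 7.07 and 20.4 CPM in LO cells, a difference of 1.69 (2.39 and 0.99). Gins1, a subunit of the replicative helicase, had 15.8 and 19.9 CPM in MID and 4.41 and 6.58 CPM in LO cells. Uhrf1, which carries DNA methylation through replication, had 51.5 and 76.3 CPM in MID and 12.1 and 44.95 CPM in LO cells, and Chaf1a, a histone chaperone at forks, 36.9 and 55.9 CPM in MID and 19.2 and 22.3 CPM in LO cells. Only Chaf1a of the 7 met the size rule. Hells and Uhrf1 passed its limits on difference and level, so they failed on the share of cells with a read or on the reads held by 1 cell. Leaving out the cells that read 20 or more G2 and M phase genes changed most of these 7. Hells was then at 2.06 and past 0.58 in each table, whereas Gins1 was at -0.03, against 1.55 with all cells. Mcm5 (-0.54 and 2.16) and Uhrf1 (-0.26 and 1.62) went opposite ways, and Mcm3 (0.11 and 1.24), Tyms (0.42 and 0.98) and Chaf1a (0.29 and 1.85) fell short of 0.58 in the first table. Myc was still at 0.85 (0.77 and 0.94). HI cells were further up, at 337.6 CPM for Mcm5 and 73.3 CPM for Hells.

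Mitosis genes differed mainly in the first table. Of the 48 listed G2 and M phase genes 30 passed the filter, 15 of the 30 were higher in both tables, where 26.7% of all genes were, and 0 lower, and the median was 0.91, made up of 1.28 in the first table and 0.05 in the second. Mki67, a marker of cycling cells, had 84.03 and 100.4 CPM in MID and 15.3 and 145 CPM in LO cells, so the tables point opposite ways. Top2a, the topoisomerase of dividing cells, had 84.03 and 81.9 CPM in MID and 14.1 and 99.7 CPM in LO cells. With the LO cell 58 back in the sums, the list's median was -0.09, and without the cells that read 20 or more of its genes it was 0.01. Cdk1, the kinase of mitotic entry, and Ndc80, a kinetochore protein, were the members past 0.58 in each table, at 29.2 and 33.7 CPM in MID against 13.3 and 18.5 CPM in LO for Cdk1. Without the cells that read 20 or more of the list, Cdk1 was at -0.23 (-2.27 and 1.82) and Ndc80 at -0.54 (-0.80 and -0.29).

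Few cells carry these reads. The 3 cells with most G2 and M phase reads held 57.9% and 57.3% of such reads in MID, and 17.01% and 54.7% in LO. The 17.01% leaves out LO cell 58, which alone held 60.8% of such LO reads in the first table. The top MID cell of that table, with 36.1%, was kept, so the shares of the first table cannot be compared between the groups. In thinned cells, 8 MID cells (6.30%, 2.76% to 12.03%) read 20 or more of the G2 and M phase genes, and 4 LO cells did so (3.28%, 0.900% to 8.18%), all 4 in the second table. Before thinning the shares were 6.72% and 2.96%. In the first table this was 0 of 56 LO cells, with an exact upper limit of 6.38%, and LO cell 58 is outside that count. The same class held 30.9% of HI and 12.5% of young cells. The corresponding S phase class held 20 MID cells (15.7%, 9.89% to 23.3%) and 10 LO cells (8.20%, 4.00% to 14.6%), and its unthinned shares were 26.9% and 14.8%. The MID and LO intervals overlap in both classes. Without the cells that read 20 or more G2 and M phase genes, the S phase median was 0.30, and without the 3 cells of each set with most S, G2 and M phase reads it was 0.65.

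Genes known to be raised in old HSCs tended to be lower in MID than in LO cells. Of the 38 listed ageing genes 37 passed the filter, 23 were lower in both tables and 2 higher (62.2% against 25.6% of all genes lower), and the median was -0.28 (-0.25 and -0.25). The differences were small, and the list was drawn up with earlier results of these cells known. Selp, P-selectin, had 183 and 201 CPM in MID and 261 and 263 CPM in LO cells, a difference of -0.45 (-0.51 and -0.38). Clu, the chaperone clusterin, had 302 and 431 CPM in MID and 469 and 549 CPM in LO cells, a difference of -0.49. Slamf1, the CD150 antigen of HSCs, had 107.6 and 96.9 CPM in MID and 159 and 193 CPM in LO cells, a difference of -0.78 (-0.56 and -0.99). For these 3 genes each MID sum lay below both LO sums.

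Trpc1, Ehd3 and Dnm3 were lower by 0.58 or more in each table. Trpc1 (ENSMUSG00000032839; chromosome 9, 95705082 to 95750375), a cation channel subunit, had 9.83 and 7.82 CPM in MID and 19.5 and 19.8 CPM in LO cells, a difference of -1.08. It was read in 11.8% of thinned MID cells (6.76% to 18.7%) and 29.5% of thinned LO cells (21.6% to 38.4%). These intervals cover counting error over the cells of 1 sample per group, so they are no test between MID and LO. Trpc1 is also the lowest member of the list and was named for that. Single cells held 23.7% and 22.1% of its reads in MID and LO, which kept it outside the size rule. Vwf, von Willebrand factor, had 356 and 396 CPM in MID and 407 and 472 CPM in LO cells, a difference of -0.22, and Aldh1a1, an aldehyde dehydrogenase, differed by -0.16. Tmem215 went opposite ways at -1.34 and 0.61. Tm4sf1, a membrane protein, and Dnmt3b, a DNA methyltransferase, were the 2 members higher in both tables, at 0.15 and 0.34. Next to young cells, MID and LO were both far up: Clu stood at 54.6 CPM and Selp at 24.8 CPM in young cells.

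**Figure D4:**
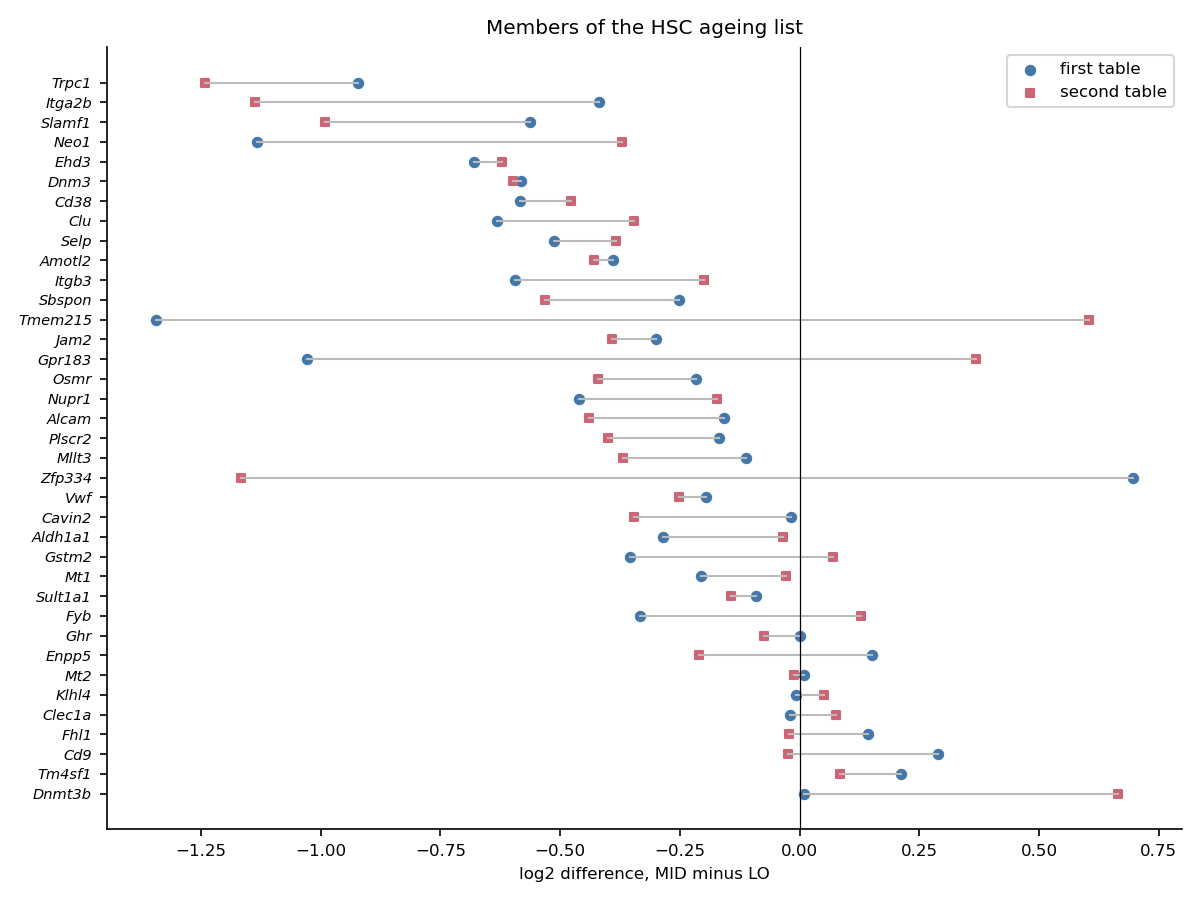
The log2 differences MID minus LO of the 37 ageing genes past the level filter are shown, 1 row per gene, with circles for the first and squares for the second table. Both marks lie left of 0 for 23 genes and right of 0 for 2, Tm4sf1 and Dnmt3b.

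Platelet, adhesion and HSC identity genes leaned the same way, with shared members. Their counts stand beside 25.6% of all genes lower in both tables and 26.7% higher. Of 20 platelet and megakaryocyte genes past the filter 11 were lower in both tables and 0 higher, with a median of -0.23 (-0.25 and -0.23). Itga2b, the platelet integrin CD41, had 120.1 and 119.8 CPM in MID and 161 and 265 CPM in LO cells, a difference of -0.78. Treml1, a receptor of platelet granules, had 5.87 and 11.8 CPM in MID and 14.4 and 19.1 CPM in LO cells. The 10 megakaryocyte markers, which overlap this list, summed to 247 and 289 CPM in MID and 315 and 428 CPM in LO cells, with 1 marker at 0 in each group, and their part in the result was not tested. Of 31 adhesion and niche genes 15 were lower and 5 higher, with a median of -0.16. Ramp2, a partner of the calcitonin receptor-like receptor, had 40.1 and 33.7 CPM in MID and 59.8 and 66.1 CPM in LO cells. Cxcr4, the receptor that holds HSCs in the marrow, was one of the 5 on the higher side, at 18.95 and 16.1 CPM in MID and 8.33 and 13.5 CPM in LO cells. Muc1, a membrane mucin of the same list, had 20.0 and 31.3 CPM in MID and 55.2 and 37.3 CPM in LO cells. Of 39 HSC identity genes 20 were lower and 5 higher, with a median of -0.15, and Mecom, Hlf and Kit were within 0.10 of LO.

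Early response genes split, and the counts here stand beside 25.6% of all genes lower in both tables and 26.7% higher. Of 25 past the filter 8 were lower in both tables and 4 higher, with a median of -0.18. Besides Fosl2, Btg2, an antiproliferative gene, had 14.6 and 13.4 CPM in MID and 24.5 and 28.5 CPM in LO cells, and Jun, an AP-1 subunit, 196 and 263 CPM in MID and 313 and 366 CPM in LO cells. Myc was the member past 0.58 on the higher side. Egr1, an early growth response factor, went opposite ways at -0.47 and 2.83. Of 18 NF-kB genes 8 were lower in both tables and 0 higher (median -0.11), and of 32 interferon response genes 12 were lower and 4 higher (median -0.10), Irf1 among them at 167 and 164 CPM in MID and 284 and 231 CPM in LO cells.

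Autophagy genes showed no common direction. Of 39 core autophagy genes past the filter 14 were higher and 11 lower in both tables, where 26.7% and 25.6% of all genes were, and the median was 0.00. Atg9a, the lipid scramblase carried by autophagy vesicles, was the 1 member of 39 past 0.58 in each table (2.56% against 1.52% of all genes), at 36.4 and 45.02 CPM in MID and 21.5 and 25.3 CPM in LO cells, a difference of 0.77 (0.73 and 0.81). Becn1, of the lipid kinase complex, had 87.8 and 89.8 CPM in MID and 67.5 and 67.4 CPM in LO cells. Atg2b, a lipid transfer protein, had 87.3 and 98.9 CPM in MID and 122.97 and 135.2 CPM in LO cells, a difference of -0.47. Sqstm1, the cargo receptor p62, had 239 and 237 CPM in MID and 251 and 264 CPM in LO cells. The medians of autophagy receptors (-0.05) and lysosome genes (-0.01) were also near that of all genes.

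Oxidative phosphorylation, proteasome and chaperone genes stood slightly higher in MID cells, and other metabolic lists did not. Of 69 nuclear genes of oxidative phosphorylation 36 were higher in both tables and 8 lower (52.2% higher against 26.7% of all genes), with a median of 0.11 (0.17 and 0.09) and none past 0.58 in each table. Of 33 proteasome genes 17 were higher and 5 lower, with a median of 0.13 (0.16 and 0.09). Ndufv3, a subunit of complex I, had 98.8 and 115.1 CPM in MID and 80.2 and 66.2 CPM in LO cells, and Psmb7, a proteasome subunit, 77.4 and 88.03 CPM in MID and 51.5 and 65.9 CPM in LO cells. Of 17 chaperone genes 10 were higher and 1 lower (median 0.13), with Stip1, a partner of HSP70 and HSP90, at 194 and 299 CPM in MID and 139.4 and 209 CPM in LO cells. Of 32 citric acid cycle and fatty acid oxidation genes 10 were higher and 13 lower in both tables, with a median of 0.01. Of 24 glycolysis genes 3 were higher and 8 lower, with a median of -0.06, and Pfkfb4, a regulator of glycolysis, was the member that met the size rule as lower, at 16.3 and 6.69 CPM in MID and 28.7 and 17.1 CPM in LO cells.

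**Figure D5:**
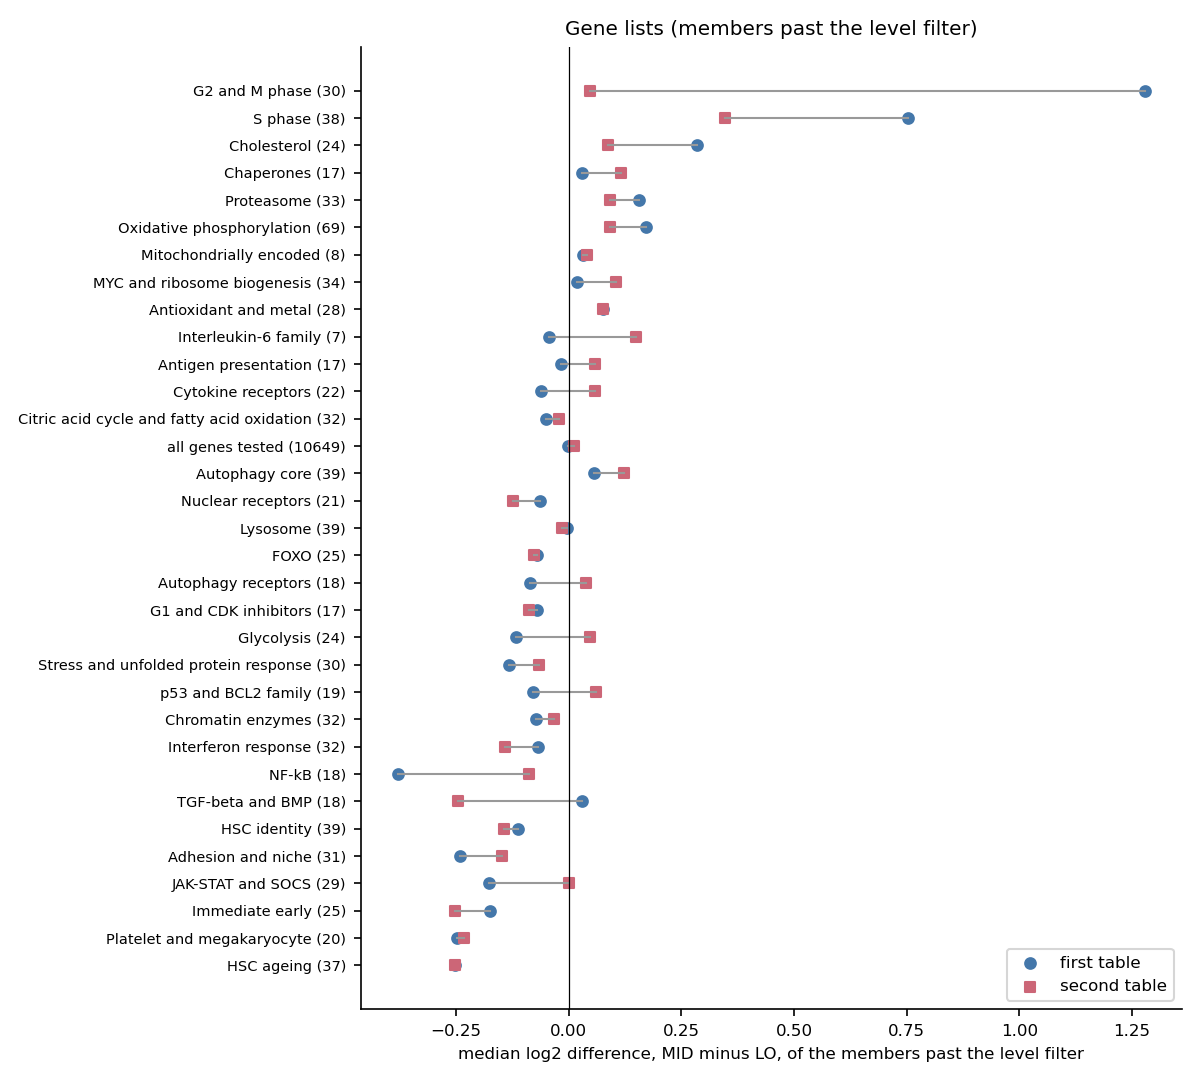
For each pathway list with 5 or more members past the level filter, the circle and the square give the median log2 difference MID minus LO in the first and in the second table, with the number of genes in brackets. S phase genes stand apart at 0.75 and 0.35, G2 and M phase genes at 1.28 and 0.05, and the HSC ageing list lies at the other end at -0.25 in each table. The LO cell that held most G2 and M phase reads of its set is left out of these values.

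Set side by side, the differences of HI and of MID cells from the same LO cells were unlike in size. The S phase median was 0.54 for MID and 1.48 for HI, and the G2 and M phase median 0.91 for MID and 2.77 for HI. These medians leave out the LO cell that held most G2 and M phase reads of its set. With that cell back, the G2 and M phase median for MID turned slightly negative, as given above. The value of 0.91 therefore does not place MID between LO and HI in these genes. The S phase median for MID kept its sign with that cell back, but its size then is not given here. The ageing median was -0.28 for MID and -0.42 for HI. The oxidative phosphorylation median was 0.11 for MID and 0.34 for HI. For eGFP the differences were 1.11 for MID and 1.09 for HI, and for Socs3 -0.65 for MID and -1.04 for HI. Since both use the LO cells, these values are not independent, and no test of MID against HI was made.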

How the data were processed

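The deposited values are raw counts of reads per gene and cell in 2 tables, whole numbers without molecular identifiers. Tools named in the submitters' processing notes are DESeq2, Subread with featureCounts 2.0.0, and STAR 2.7.3a, and the build named there is mm10. The role of each is not given. Gene identifiers were matched to GENCODE (GRCm38) for 45229 of 46078 entries. Of all reads, 23.6% lay in genes, and entries that name no gene (33.1% without a feature, 38.8% not aligned, 4.03% ambiguous) and spike-ins (0.433%) stayed out of the totals.

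Counts of the kept cells were summed per group and table, which gave 8 sums over 4 groups, and scaled to CPM of nuclear gene reads with the TMM method (edgeR 4.0.16, R 4.3.3). No label names an animal, so no test was made. No doublet caller was run on these singly sorted cells, and cells were not clustered. Intervals of log2 differences are normal approximations from the read counts, and those of shares are exact Clopper-Pearson intervals. Thinning to 100000 reads left 127 MID and 122 LO cells and left out 7 and 13. Pseudogenes and unnamed gene models could not meet the size rule. Summing and differences were run on simulated cells with planted differences, and the median size of those differences was checked. That run left out the TMM factors, thinning and gene lists. Other steps used matplotlib 3.10.9, SciPy 1.17.1, pandas 2.3.3 and NumPy 2.4.6 under Python 3.11.15.

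The members, lists, size rule and tests were chosen with earlier results of these data known. Named genes are the 12 highest and 12 lowest by the rule, the 2 at either end of each list, and fixed ones such as Socs3, Cish, Selp, Mki67 and Kit. Further list members serve as examples, chosen after their values were seen. Alternatives were other scaling, pseudocounts, level filters, cell filters, thinning, means over cells and single tables. Some genes are not reported here.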

Additional observations from a re-analysis of the deposited data

How the results depend on the processing

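The eGFP difference (1.11) was above 0 under all 17 alternatives run, from 0.87 to 1.36, and that of Socs3 (-0.65) below 0, from -1.08 to -0.23. For eGFP it was 0.94 as a mean over cells, 1.17 without cells that read 8 or more G2 and M phase genes, 1.36 without cells with markers of another lineage, 0.995 in thinned cells, 0.87 in the first and 1.34 in the second table alone, 1.15 without cells that read 20 or more G2 and M phase genes and 1.18 without the top cell of each set. For Socs3 it was -1.08, -0.82, -0.23 and -1.08 without the 8-gene cells, without the lineage cells and in the first and the second table, and -0.91 without the 3 cells of each set with most S, G2 and M phase reads. Of the tested genes, 0.254% were higher and 0.244% lower by the size rule. With a pseudocount of 10 CPM this was 0.0282% and 0.0376%, with the stricter level filter 0.0194% for each, without the 8-gene cells 0.859% and 1.18%, in the first table alone 1.11% and 1.16%, and in the second alone 0.982% and 1.06%. Without the lineage cells 0.917% were lower, and without the 3 cells of each set 0.462% were higher. The lineage filter left 9 and 8 MID and 11 and 12 LO cells and none of the 53 genes by the rule, and reversed Zfp873 (-2.46), Il18 (-0.91), Ddx51 (0.27), Chaf1a (-3.57), Slc26a2 (0.18), Foxn2 (-2.84) and Ccdc60 (-0.25). Without the 8-gene cells, which left 31 and 22 MID and 32 and 32 LO cells, Map1b was at 0.024. The cause was not tested, though both filters leave few cells. The other 45 of 53 genes held their sign throughout. Of the 27 and the 26 genes, 15 and 11 still met the rule as a mean over cells, 15 and 13 in thinned cells, and 3 and 4 without the 8-gene cells. The ageing median stayed below 0 (-0.42 to -0.20) and the oxidative phosphorylation median above it (0.05 to 0.17) under all 16 alternatives for lists, while the S phase median ran from -0.28 without the lineage cells to 0.71 in the first table. Alternatives that leave out cells by 20 genes or by the top 3 were chosen after seeing the data. No paired analysis was possible because the result comes from no test and replicate numbers name cells, not animals.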

Other observations

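Genes named Zfp with a number made up 4 of the 27 genes higher in MID by the size rule (14.8%) and 0 of the 26 lower ones, against 244 of the 10649 genes tested (2.29%). The median difference of those 244 genes was -0.03 (-0.03 and -0.01), so the family as a whole did not stand higher. This was noticed after the values were seen. Zfp874b had 45.7 and 40.6 CPM in MID cells and 28.6 and 15.4 CPM in LO cells.

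Plac8, a gene known from multipotent progenitors, had 8.70 and 4.91 CPM in MID and 27.7 and 26.5 CPM in LO cells, and 30.1 CPM in young cells. Its difference was -1.89, yet it did not meet the size rule. It passed the limits on difference and level, so it failed on the share of LO cells with a read or on the reads held by a single LO cell. At least 3 of the listed progenitor genes were read in 27.6% of thinned MID and 22.1% of thinned LO cells, whose intervals overlap.

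Over the cells of the 4 sets (68, 66, 64 and 71 cells), the gene most like Socs3 by the mean Spearman rho of log2(CPM + 1) per cell was Soat1, an enzyme of cholesterol esters, at 0.26, next to Tax1bp1 at 0.25 and Eef2 at 0.25. The 95th percentile over 9668 genes was 0.131. In sparse counts these values are weak, the cells share libraries and depth, and they are given as a description.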
